A study of Homo sapiens with 6 samples.

Results

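The comparison described here sets OVCAR8 cells in which EZH2 was silenced by a doxycycline-induced hairpin (shEZH2) against control OVCAR8 cells, gene by gene. OVCAR8 is a cell line from a high grade serous ovarian cancer. The members are the genes that reached 10 in 2 or more of the 4 control and shEZH2 samples, and 9241 of the 14930 genes in the matrix (61.9%) met this rule. A further group of 2 samples, cells treated with the inhibitor DZNep at 5 μM, enters only to share an estimate of the spread and in comparisons near the end. All cells were collected after 72 hours. The shEZH2 cells carried an EZH2 hairpin in a tetracycline-regulated lentiviral vector and received doxycycline at 1 μg/mL. These units come from the published methods, and the labels print both doses in mM and mg/mL. The control samples are labelled only as control, the treatments that the labels name are DMSO, DZNep and doxycycline, and whether the control cells carried the uninduced hairpin is not given in the sources used here. Doxycycline, the induced hairpin and the loss of EZH2 came together in the shEZH2 samples, so their contributions cannot be told apart. Whether the control and shEZH2 samples were prepared together is not given, so a difference in preparation cannot be told apart from them either. The sources do not say that the 2 samples of a group came from separate cultures, so p-values measure only the spread between these samples, which may be technical.

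EZH2 is the catalytic subunit of Polycomb repressive complex PRC2, which also holds SUZ12 and EED and methylates histone H3 at lysine 27, a mark of silenced chromatin that the demethylases KDM6A and KDM6B remove. Complexes of the PRC1 type bind this mark. In ovarian and other cancers EZH2 is often abundant, and besides its role in repression it has been described to bind promoters of active genes without the histone mark. The study's question was which genes depend on EZH2 in ovarian cancer cells.

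The hairpin targets a stretch of 21 bases in the coding sequence of EZH2, shown here because it is the agent that separates the groups. The target lies at chr7:148832703-148832723 of GRCh38, in exon 4 of the 20 exons of the canonical transcript, whose gene runs from 148807260 to 148884320 on the minus strand of chromosome 7. In the target the capitals mark the bases complementary to the seed of the guide strand, and in the guide they mark the seed (bases 2 to 8).
target: ccaacacaagtcaTCCCATTa
guide: tAATGGGAtgacttgtgttgg
An exact match to the target was found in the sense strand of transcripts of 1 gene, EZH2, in GENCODE v44, and the number of genes with an antisense match was 0.

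EZH2 itself had values of 36 and 42 in the control samples and 18 and 18 in the shEZH2 samples. The groups did not overlap, and EZH2 was 2.17-fold lower in shEZH2 cells (log2 fold change -1.11, SE 0.18, adjusted p 0.0179, limma with Benjamini-Hochberg adjustment over the 9241 genes). The values are not read counts. The authors scaled every sample to a common total, 999956 to 1000068, and rounded to whole numbers, so depth per sample is unknown and a value of 18 is known only to the nearest unit. Fold changes are differences of log2(value + 1) after rescaling and understate the change of low genes. When the shEZH2 samples were averaged and counted as 1 sample, the call on EZH2 was lost at an unchanged fold change (adjusted p 0.209). It was also lost without shEZH2 replicate 1 (adjusted p 0.216) and without shEZH2 replicate 2 (adjusted p 0.187).

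The replicates of the groups differed from each other to an unequal degree. The log2 difference between the 2 samples of a group had an SD over genes of 0.426 in control cells and 0.136 in shEZH2 cells, and for the most abundant 195 genes it was 0.305 and 0.0841. Equal whole numbers in both samples were found for 17% of genes in the control group and 28.2% in the shEZH2 group. The difference between the control samples followed base composition, with a Spearman correlation of 0.78 across genes between control 1 minus control 2 and transcript GC content. The log2 fold change of shEZH2 against control followed GC content less strongly (0.35 across genes, which share their libraries and are not independent). The part of GC content in single genes was not tested beyond a fit corrected for it. Mitochondrial mRNAs took 0.194% and 0.240% of the control totals and 0.399% and 0.333% of the shEZH2 totals.

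**Figure D1:**
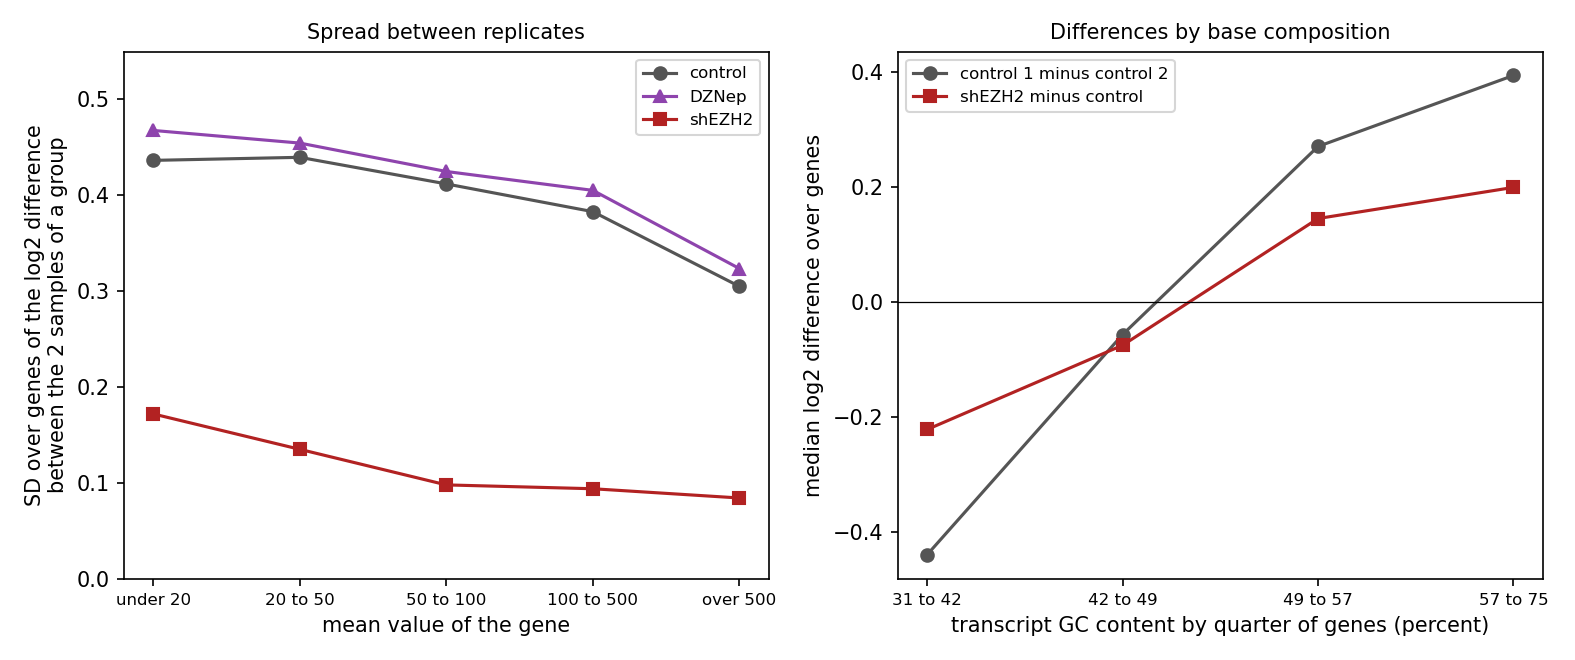
Left, SD over genes of the log2 difference between the 2 samples of each group (y axis) for genes by mean value (x axis), with control as circles, DZNep as triangles and shEZH2 as squares. Right, median log2 difference over genes (y axis) in 4 equal classes of transcript GC content in percent (x axis), for control 1 minus control 2 and for shEZH2 minus control. Both lines rise with GC content, and the shEZH2 samples differ from each other the least.

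Of the 9241 genes, 702 passed an adjusted p of 0.05 (7.60%). Among these, 300 were higher in shEZH2 cells (3.25% of the genes tested) and 402 were lower (4.35%), so that 42.7% of the calls were upward. For all 702 genes both shEZH2 samples lay outside the control values. Such a lack of overlap is common in these data, where the shEZH2 samples were higher than both controls for 32.6% of the genes tested and lower for 32.4%. The median log2 fold change over all genes was -0.016 and the median of its absolute value 0.31. More than 2-fold higher levels were called for 158 genes and more than 2-fold lower levels for 254, and beyond 4-fold there were 3 genes higher and 23 lower. With an unadjusted p under 0.05 and a change beyond 2-fold as the rule, the thresholds of the published methods, 182 genes were higher (1.97%) and 289 lower (3.13%). The filter itself selects on level: 224 genes passed it only through the control samples, of which 87 were called lower, and 290 only through the shEZH2 samples, of which 57 were called higher. The 3 genes more than 4-fold higher, SGK223, IFIT2 and TNF (means 7, 9.25 and 12.75), passed it only through the shEZH2 samples. Among the 23 genes more than 4-fold lower, OR7E19P and GALNT12 passed it only through the control samples. At the edge of the filter, 244 genes had 10 as the second highest of the 4 values and 332 genes just outside had 9.

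These counts depended on how the replicates were treated. Counted as 1 sample, the shEZH2 cells gave 8 genes called higher and 25 lower, all of them among the 702, and leaving out either shEZH2 sample gave 7 and 25. Without control replicate 1 the counts were 598 and 509, and without control replicate 2 they were 97 and 259. With the values as deposited, without rescaling, 712 genes were called higher and 403 lower, which raised the upward share of calls to 63.9%. That share was 54.0% without control replicate 1 and 27.2% without control replicate 2. All 702 genes kept their direction under each of these settings. Of the 124 called genes named by rule besides EZH2, 105 kept the call without control replicate 1, 72 without control replicate 2 and 21 with the shEZH2 samples counted as 1.

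**Figure D2:**
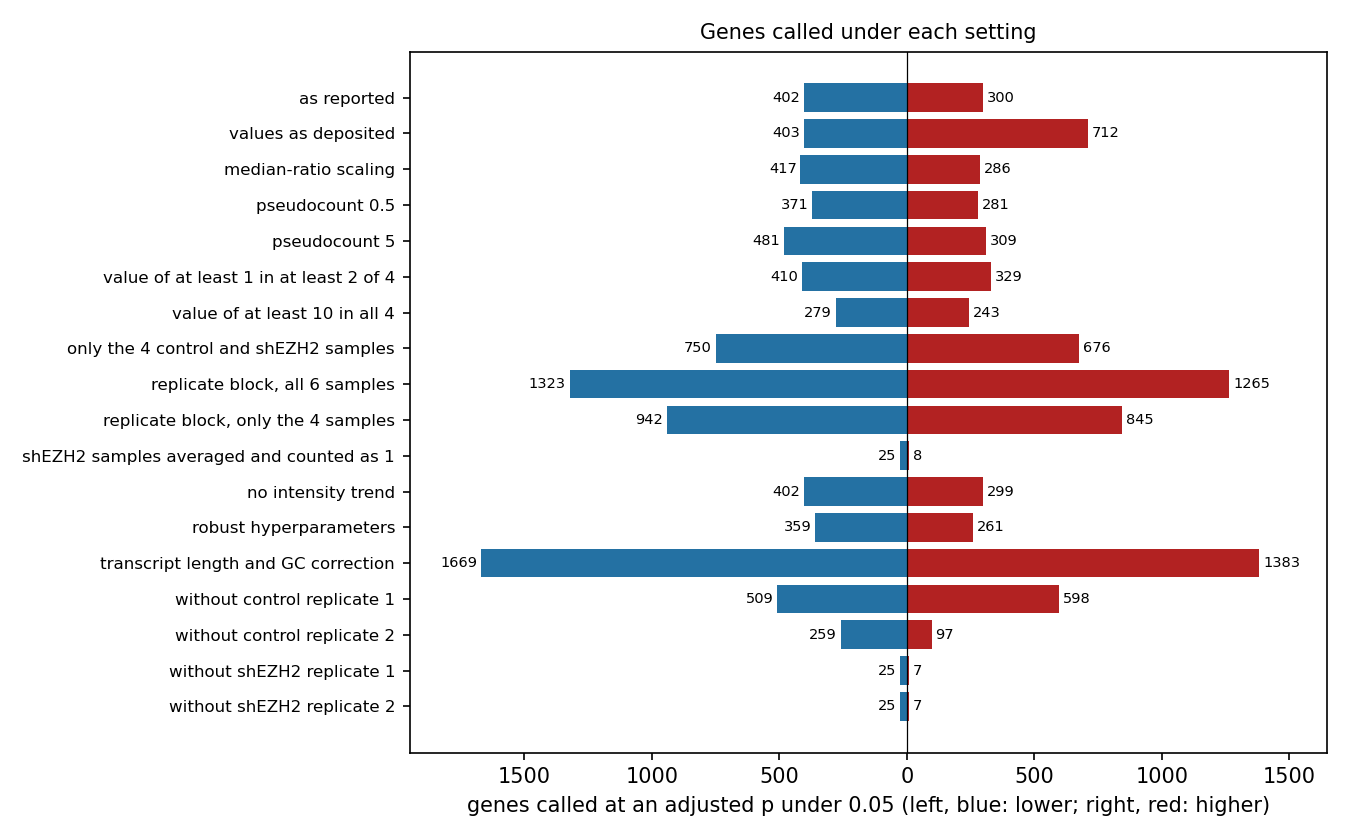
Number of genes called at an adjusted p under 0.05 (x axis), lower in shEZH2 cells to the left in blue and higher to the right in red, under each setting (y axis). The counts run from 7 higher and 25 lower without an shEZH2 sample to 1383 higher and 1669 lower once transcript length and GC content were corrected for.

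The 15 genes with the lowest fold changes included metabolic enzymes, a secreted ligand and factors of protein folding and membrane cutting. PFKP, the platelet isoform of the glycolytic enzyme phosphofructokinase, was at 2969 and 2509 in control cells and at 441 and 433 in shEZH2 cells, 6.44-fold lower (log2 fold change -2.69, SE 0.21, adjusted p 0.00258). LMF1, a factor that lipases need for folding in the endoplasmic reticulum, fell from 118 and 91 to 14 and 12 (log2 fold change -2.95, SE 0.23, adjusted p 0.00258). IDH2, the mitochondrial NADP-dependent isocitrate dehydrogenase, fell from 283 and 229 to 47 and 45, 5.61-fold (log2 fold change -2.49, SE 0.22, adjusted p 0.00305). In each of these genes the gap between the groups exceeded the gap between the control samples. GAS6, the secreted ligand of the TAM receptor kinases, went from 392 and 316 to 66 and 63 (log2 fold change -2.48, SE 0.20, adjusted p 0.00258). CHMP3, a subunit of the membrane-cutting ESCRT-III complex, went from 110 and 135 to 20 and 21 (log2 fold change -2.56, SE 0.19, adjusted p 0.00258).

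Further genes of this group act at the cell surface, in lipid metabolism and in DNA repair. CD24, a small glycoprotein anchored in the membrane, had 156 and 205 in control cells and 41 and 37 in shEZH2 cells, 4.65-fold lower (adjusted p 0.00313). MGMT, which removes alkyl groups from guanine in DNA, had 122 and 101 against 25 and 28, 4.21-fold lower (adjusted p 0.0062). IGFBP3, a binding protein of insulin-like growth factors, had 100 and 101 against 32 and 27, 3.45-fold lower (adjusted p 0.00337). These 3 genes had control samples that differed by less than 1.5-fold, and none of their shEZH2 samples approached the controls. CRTAP, a partner of the enzyme that hydroxylates prolines in collagen, fell from 326 and 330 to 98 and 98 (adjusted p 0.00305), and ACSF3, the mitochondrial malonyl-CoA synthetase, fell from 106 and 98 to 31 and 29 (adjusted p 0.00742). The annexin ANXA8 fell from 129 and 131 to 37 and 39 (adjusted p 0.00313). ANXA8 has the near-identical neighbour ANXA8L1, which was chosen after its values were seen and had 31 and 27 against 10 and 9, and how reads were shared between them is uncertain. The remaining 4 of the 15 genes with the lowest fold changes were KLHL35, RHPN1, FADS1 and FADS2, at log2 fold changes of -2.49, -2.13, -1.81 and -2.10. The lowest fold change of all belonged to OR7E19P, an olfactory receptor pseudogene below the level at which leading genes were named and chosen after its values were seen, with 85 and 78 in control cells and 7 and 7 in shEZH2 cells (log2 fold change -3.41, adjusted p 0.00258). OR7E19P passed the filter only through the control samples.

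The genes with the strongest rises encode a receptor kinase, an interferon-induced protein and early response factors. EPHA2, a receptor of ephrin-A ligands, rose from 37 and 31 to 150 and 131, 3.92-fold (log2 fold change 1.97, SE 0.21, adjusted p 0.00533). ISG15, a ubiquitin-like protein induced by interferon, rose from 72 and 65 to 252 and 252, 3.53-fold (log2 fold change 1.82, SE 0.21, adjusted p 0.0062). JUNB, a component of the transcription factor AP-1, rose from 39 and 41 to 143 and 132, 3.27-fold (log2 fold change 1.71, SE 0.20, adjusted p 0.00624). For all 3 the lower shEZH2 sample was more than 3 times the higher control sample. NFKBIA, the inhibitor that holds NF-kB in the cytoplasm and is itself induced by it, rose from 138 and 125 to 440 and 429, 3.19-fold (adjusted p 0.00602). CITED2, which binds the coactivators CBP and p300, rose from 33 and 31 to 115 and 97, 3.13-fold, and the glycoprotein hormone STC2 rose from 103 and 93 to 317 and 319, 3.13-fold (adjusted p 0.00533 for both).

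The other 9 of the 15 highest genes included the matrix proteins THBS1 and FN1. Thrombospondin 1 (THBS1), a matrix glycoprotein, had 46 and 45 in control cells and 141 and 120 in shEZH2 cells, 2.73-fold higher (adjusted p 0.0062). Fibronectin (FN1) had 36 and 25 against 87 and 70, 2.47-fold higher (adjusted p 0.0238). PPP1R15A, the subunit that directs a phosphatase to the initiation factor eIF2α, had 36 and 30 against 83 and 90, 2.50-fold higher (adjusted p 0.0155). NNMT, which methylates nicotinamide with S-adenosylmethionine, had 51 and 42 against 108 and 123, 2.38-fold higher (adjusted p 0.0181). IER3, NFKB2, GADD45B, HCFC1R1 and NISCH completed this group with log2 fold changes of 1.35, 1.28, 1.26, 1.39 and 1.25. All 15 of the lowest and all 15 of the highest genes kept their call without either control sample. With the shEZH2 samples counted as 1, 14 of the 15 lowest and 6 of the 15 highest (EPHA2, ISG15, JUNB, NFKBIA, CITED2 and STC2) kept it.

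**Figure D3:**
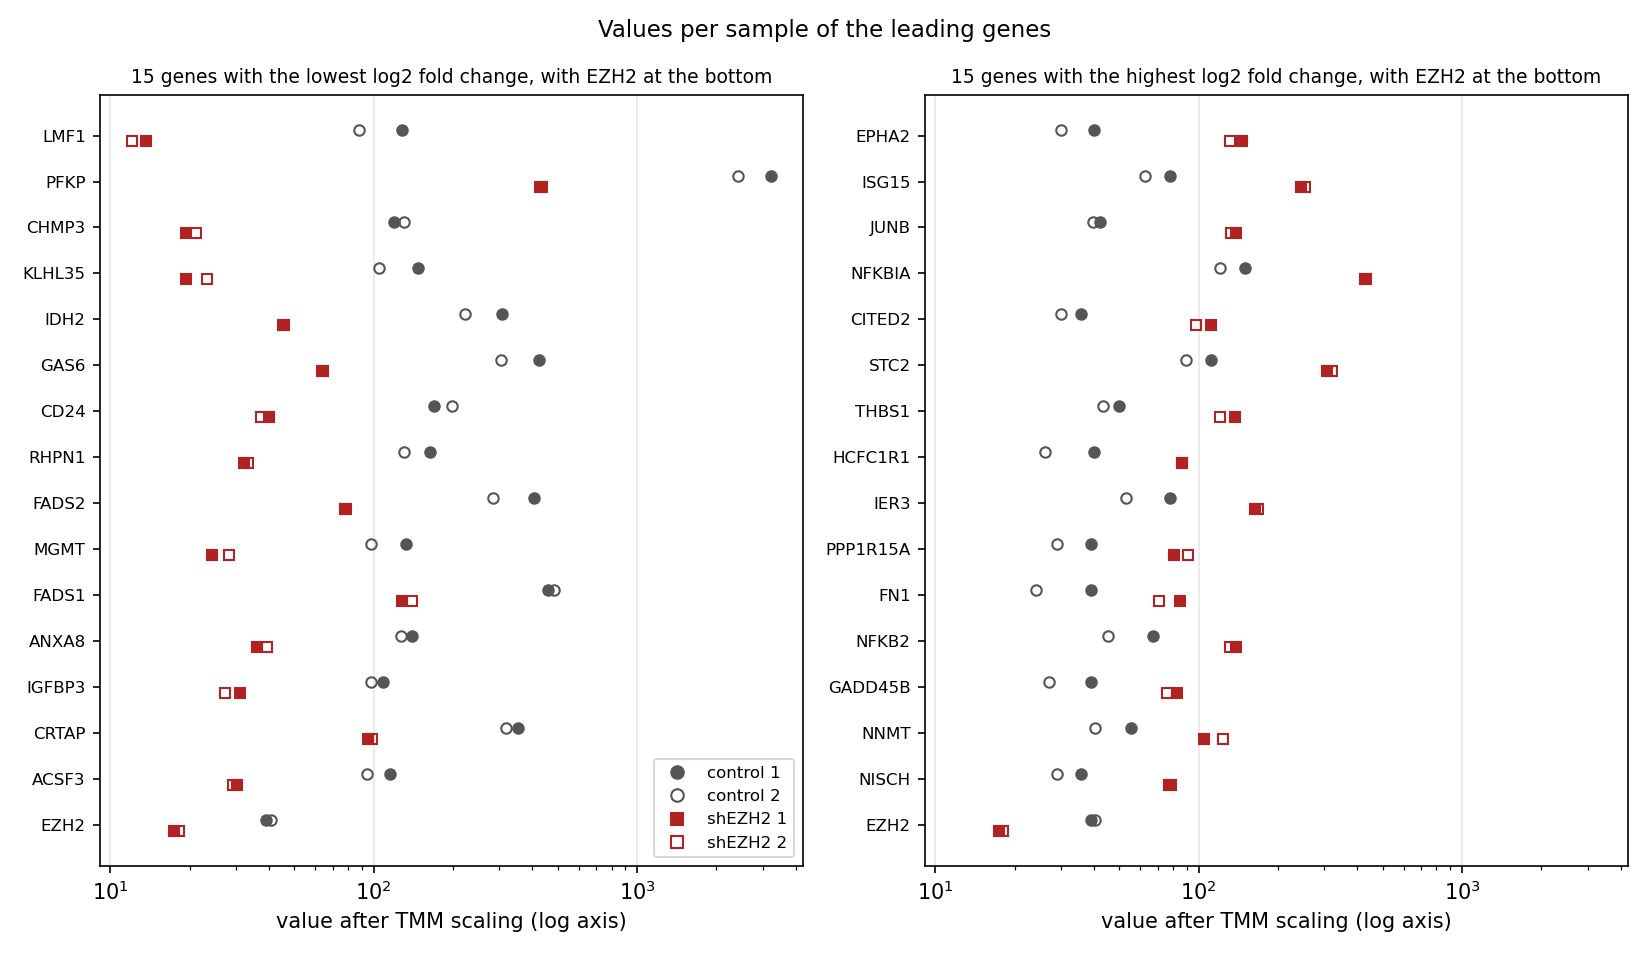
Value of each sample after rescaling (x axis, log scale) for the 15 genes with the lowest (left) and the 15 with the highest (right) log2 fold change of all called genes whose mean reached 50, and for EZH2 at the bottom; circles are control samples, squares are shEZH2 samples, filled for replicate 1 and open for replicate 2. In no row do the squares reach the circles.

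**Figure D4:**
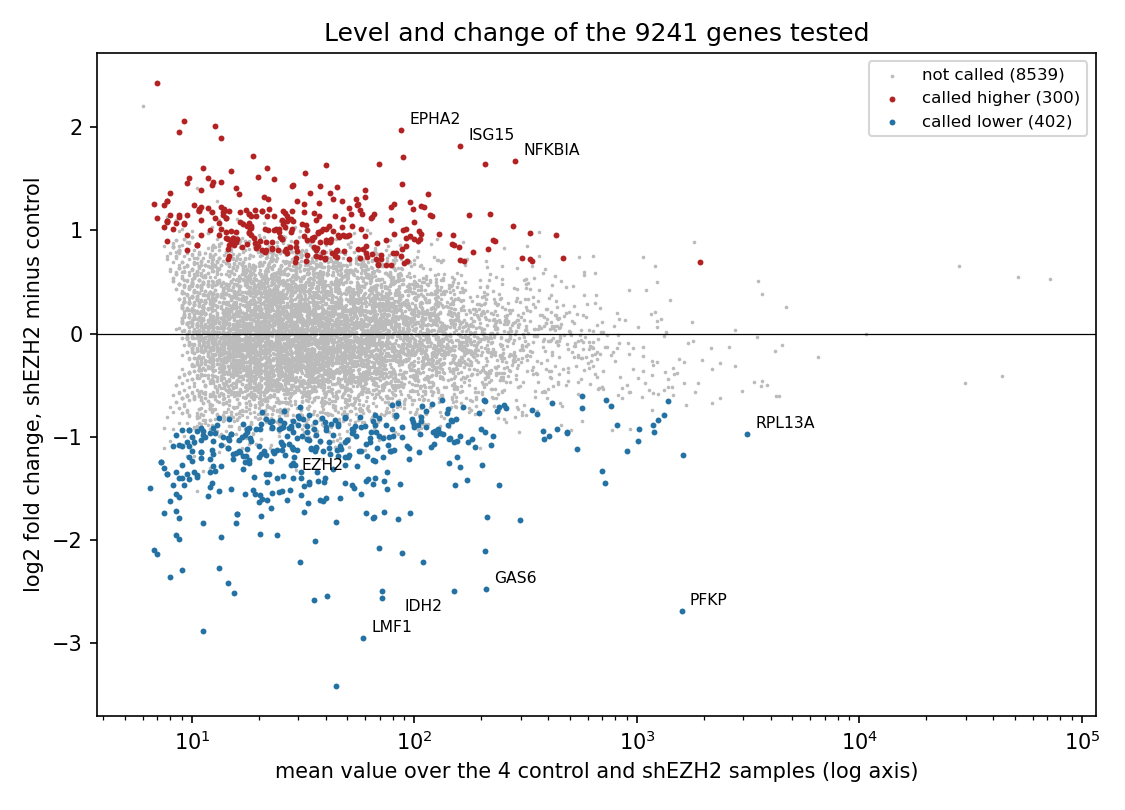
Log2 fold change of shEZH2 against control (y axis) against the mean value over the 4 samples (x axis, log scale) for the 9241 genes, with the 300 genes called higher in red, the 402 called lower in blue and the others in grey. PFKP, at -2.69 and with a mean of 1588, is the lowest of the abundant genes, and OR7E19P, at -3.41, is the lowest of all.

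To describe the response by function, 55 lists of genes from textbook pathways were used, which held 182 of the 702 called genes. Per list, the count of called members and the median log2 fold change are given and can be read against 3.25% called higher, 4.35% called lower and a median of -0.016 over all genes. The lists and their members were picked with earlier results of these data known. Shares above these values are therefore not independent support. At least 1 member was called in 48 lists, and in 13 with the shEZH2 samples counted as 1. The 11 lists with a median beyond 0.3 in either direction kept the sign of that median under all 17 alternative settings. Of the 55 lists 36 did so, and the medians of the others, among them PRC2, glycolysis, the respiratory chain, N-glycosylation and the tubulins, changed sign under at least 1 setting.

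In the Polycomb group EZH2 was the only member of PRC2 or of its opposing demethylases to be called (0 higher and 1 lower of 13 tested, median -0.08). The most abundant members, RBBP7 at 131 and 169 in control cells against 118 and 112 in shEZH2 cells and PHF19 at 93 and 75 against 84 and 90, did not pass the test (adjusted p 0.183 and 0.980). SUZ12 and EED, the core partners of EZH2, were chosen after their values were seen. SUZ12 had 15 and 31 against 21 and 19 and EED had 37 and 50 against 42 and 42, with shEZH2 samples between or near the controls (adjusted p 0.792 and 0.805). The paralog EZH1 had 20 and 29 against 24 and 23 (adjusted p 0.840).

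Among genes described in other cancer cells as repressed by EZH2, those that passed the filter showed no common direction. Members below it were not tested, so a rise that stayed low could not be seen. Of 31 such genes 12 passed the filter on low values, 2 were called higher and 1 lower, and the median was 0.07. Without control replicate 2, 1 was called in each direction, and with length and GC content corrected for the median was -0.15. DKK1, a secreted inhibitor of Wnt signalling, rose from 55 and 63 to 128 and 120 (log2 fold change 1.02, SE 0.15, adjusted p 0.0148), whereas IGFBP3, in the same list, fell as given above. Of 67 HOX and other developmental transcription factors, which PRC2 typically silences, 7 passed the filter and 1 was called (GATA2, log2 fold change 0.93). Without control replicate 2 that count was 0. Among DNA and histone methyltransferases and demethylases the count was 1 higher and 0 lower of 56 (4 and 1 without control replicate 1, 0 and 0 without control replicate 2), the call being SETD8 (now KMT5A), which methylates histone H4, at 22 and 21 against 37 and 38 (adjusted p 0.0497). DNMT1, the maintenance DNA methyltransferase, had 219 and 232 against 229 and 211 (adjusted p 0.781).

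Central carbon metabolism held a few deep falls in lists whose medians stayed near 0. In glycolysis 1 of 22 genes was called higher and 2 lower (median 0.04). Beside PFKP, the liver isoform PFKL fell from 149 and 117 to 73 and 74 (log2 fold change -0.88, SE 0.22, adjusted p 0.0496), and the glucose transporter SLC2A3 rose from 51 and 52 to 88 and 83 (log2 fold change 0.67, SE 0.16, adjusted p 0.0453). When control replicate 1 was left out, 0 glycolysis genes were called higher and 1 lower, and without control replicate 2, 0 higher and 2 lower. With transcript length and GC content corrected for, 1 glycolysis gene was called higher and 8 lower, against 1383 and 1669 of all 9241 genes. In the pentose phosphate pathway PGLS, which opens the ring of phosphogluconolactone, fell from 102 and 78 to 34 and 34 (log2 fold change -1.41, SE 0.22, adjusted p 0.0157) and was the single call among 9 genes. The abundant members TKT, at 709 and 553 against 559 and 549, and PGD, at 233 and 223 against 242 and 245, did not pass the test.

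In the TCA cycle 3 of 31 genes were called lower and 0 higher (9.68% lower, median -0.13). Beside IDH2 these were OGDHL, a relative of the oxoglutarate dehydrogenase subunit, at 35 and 31 against 10 and 11 (log2 fold change -1.61, SE 0.24, adjusted p 0.0148), and the mitochondrial malic enzyme ME2 at 36 and 42 against 19 and 17 (log2 fold change -1.12, SE 0.22, adjusted p 0.0271). After control replicate 1 was removed, 1 gene was called higher and 5 lower. Among 72 nuclear-encoded subunits of the respiratory chain 0 were called higher and 3 lower (4.17%, median -0.06). These were the complex I subunits NDUFB6, at 62 and 74 against 39 and 34, and NDUFB5, at 56 and 68 against 36 and 36, and the ATP synthase subunit ATP5H, at 239 and 263 against 169 and 160. With control replicate 2 left out, the count of respiratory subunits called was 0, and without control replicate 1 it was 1 higher and 2 lower. PCK2, the mitochondrial phosphoenolpyruvate carboxykinase, had 117 and 85 against 58 and 61 and did not pass the test (log2 fold change -0.78, SE 0.23, adjusted p 0.0708).

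Transcripts of the mitochondrial genome were called in the opposite direction. Of 10 mitochondrial protein-coding genes that passed the filter, 7 were called higher (70.0%) and 0 lower, with a median log2 fold change of 0.85. MT-ND5, a complex I subunit, had 31 and 34 in control cells and 81 and 53 in shEZH2 cells (log2 fold change 0.95, SE 0.21, adjusted p 0.0364). MT-CYB, the complex III subunit cytochrome b, had 55 and 69 against 126 and 102 (log2 fold change 0.82, SE 0.17, adjusted p 0.0306). For this list the shEZH2 samples differed from each other more than usual, with medians of 0.99 and 0.67 above the control mean, and both lay above both controls. The other genes called were MT-ND4, MT-ND2, MT-CO1, MT-CO3 and MT-ATP6. When control replicate 2 was left out, the number called was 0, and without control replicate 1 it was 5. Nuclear copies of mitochondrial sequence can share reads with these genes. Of 76 mitochondrial ribosomal proteins 2 were called higher and 0 lower (median 0.20), MRPS34 at 108 and 96 against 193 and 193 and MRPL34 at 35 and 33 against 65 and 59. Without control replicate 1, 11 of them were called higher, and without control replicate 2 the count was 0. Of 31 factors of mitochondrial transcription and translation and of 19 mitochondrial chaperones and proteases 0 were called in either direction at an adjusted p of 0.05 by limma, with medians of -0.08 and -0.19. At an unadjusted p under 0.05 there were 2 and 4. With control replicate 1 left out, the first list had 1 call in each direction and the second 1 lower.

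Genes of lipid synthesis were called lower in both of its branches. Of 28 genes of cholesterol synthesis and uptake 7 were called lower (25.0%) and 0 higher, 24 had a negative log2 fold change, and the median was -0.41 (-0.23 without control replicate 1). INSIG1, which retains the sterol sensor SCAP in the endoplasmic reticulum and is itself induced when sterols are low, fell from 211 and 234 to 86 and 79 (log2 fold change -1.47, SE 0.16, adjusted p 0.00536). IDI1, an isomerase of the isoprenoid steps, fell from 200 and 301 to 100 and 89 (log2 fold change -1.42, SE 0.25, adjusted p 0.0212), and the sterol oxidase MSMO1 fell from 114 and 143 to 66 and 56 (adjusted p 0.021). SQLE, the squalene epoxidase, fell from 238 and 306 to 152 and 135 (log2 fold change -0.95, SE 0.17, adjusted p 0.0202). In these 4 genes control 2 was the higher control, and the shEZH2 values lay below both. HMGCS1 and ACAT2 were also called. After control replicate 2 was removed, 3 members were called lower.

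Of 23 genes of fatty acid synthesis, desaturation and elongation 5 were called lower (21.7%) and 0 higher, with a median of -0.45. FADS1 and FADS2, neighbouring desaturase genes for polyunsaturated fatty acids, fell from 425 and 502 to 132 and 139 (3.50-fold, adjusted p 0.00313) and from 374 and 294 to 80 and 78 (4.29-fold, adjusted p 0.00533). ELOVL2, an elongase of the same pathway, fell from 45 and 71 to 27 and 24 (log2 fold change -1.17, SE 0.23, adjusted p 0.0266). SCD5 and SCD, the stearoyl-CoA desaturases, were the other 2, at log2 fold changes of -0.83 and -0.69. ELOVL1 had 113 and 93 against 66 and 67 and did not pass the test (log2 fold change -0.66, SE 0.23, adjusted p 0.113). In fatty acid oxidation 3 of 18 genes were called lower and 0 higher (median -0.34), namely the carnitine palmitoyltransferase CPT2 at 48 and 41 against 18 and 17, the electron transfer flavoprotein subunit ETFB at 112 and 100 against 49 and 49, and the dehydrogenase HADH at 55 and 58 against 27 and 26. Without control replicate 2, 3 genes of synthesis and 2 of oxidation were called lower.

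Cytosolic ribosomal proteins had a median of -0.48, which was -0.34 without control replicate 1 and -0.56 without control replicate 2. Of 79 members 17 were called lower (21.5%) and 0 higher, 71 had a negative log2 fold change, and in 63 both shEZH2 samples lay below both controls, a gap that 32.4% of all genes had. RPS12 had 1275 and 1182 in control cells and 563 and 589 in shEZH2 cells (log2 fold change -1.14, SE 0.17, adjusted p 0.0152), and RPL12 had 1441 and 1269 against 669 and 686 (log2 fold change -1.04, SE 0.19, adjusted p 0.021). RPL13A, an abundant protein of the large subunit, had 4351 and 3850 against 2107 and 2204 (log2 fold change -0.97, SE 0.20, adjusted p 0.0306). Together the 79 genes made up 11.9% and 10.9% of the control totals and 8.53% and 8.69% of the shEZH2 totals. When control replicate 1 was left out, 7 members were called lower, and without control replicate 2, 10 members. With transcript length and GC content corrected for, 59 were, in a fit that called 1669 of all 9241 genes lower. Many ribosomal protein genes have processed pseudogenes, so the sharing of reads among copies is uncertain.

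Ribosome assembly factors and tRNA synthetases had medians nearer to 0. Among 46 nucleolar and ribosome assembly factors 3 were called higher and 1 lower (median 0.08). RRP12, which matures ribosomal RNA, rose from 35 and 24 to 66 and 66, MYC, a transcription factor that drives ribosome production, rose from 73 and 69 to 136 and 139 (log2 fold change 0.90, SE 0.17, adjusted p 0.0248), and RRS1 rose from 23 and 25 to 41 and 41. NCL, the nucleolar protein nucleolin, fell from 252 and 338 to 178 and 189 (log2 fold change -0.71, SE 0.17, adjusted p 0.0448). With control replicate 2 left out, the number called in this list was 0, and without control replicate 1 it was 6 higher and 2 lower. Of 23 cytosolic tRNA synthetases 0 were called by limma and 2 had an unadjusted p under 0.05 (median -0.09). Their most abundant members, SARS at 603 and 521 against 735 and 767 and AARS at 590 and 572 against 480 and 488, had adjusted p of 0.224 and 0.307.

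Long noncoding RNAs and snoRNA host genes held 8 calls lower (23.5% of 34) and 0 higher, with a median of -0.30. UCA1, an RNA named for its abundance in urothelial cancer, fell from 119 and 102 to 43 and 36 (log2 fold change -1.51, SE 0.25, adjusted p 0.018). SNHG6 and SNHG8, whose introns hold snoRNAs, fell from 189 and 212 to 84 and 88 (log2 fold change -1.26, SE 0.15, adjusted p 0.00794) and from 96 and 85 to 38 and 41 (adjusted p 0.019). LRRC75A-AS1, SNHG5, SNHG12, EPB41L4A-AS1 and NEAT1 were the other 5. LRRC75A-AS1 is an antisense transcript, and although the library kit marks strand, whether strand was used in quantification is not given. When control replicate 2 was left out, 4 members were called lower.

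In nucleotide synthesis 1 gene was called higher and 3 lower of 29 (median -0.30). IMPDH2, which commits purine synthesis to guanine nucleotides, fell from 1128 and 958 to 392 and 393 (log2 fold change -1.45, SE 0.19, adjusted p 0.00983), and the ribonucleotide reductase subunits RRM1 and RRM2 fell from 143 and 198 to 84 and 94 and from 110 and 138 to 71 and 72 (adjusted p 0.0482 and 0.0254). The CTP synthase CTPS1 rose from 123 and 115 to 205 and 198 (adjusted p 0.0456). After control replicate 1 was removed, 3 members were called higher and 3 lower, and without control replicate 2 the counts were 0 and 1. Of 23 genes of the methionine cycle and polyamines 3 were called higher and 2 lower (median -0.02, which took the other sign with the values as deposited). PEMT, which methylates phosphatidylethanolamine, fell from 86 and 68 to 29 and 27 (log2 fold change -1.46, SE 0.26, adjusted p 0.021), spermine synthase (SMS) fell from 287 and 346 to 194 and 201, and the polyamine acetyltransferase SAT1 rose from 224 and 224 to 399 and 372 (adjusted p 0.0308). After control replicate 2 was removed, this list held 1 call in each direction.

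Glycosylation was covered by a pair of lists. SRD5A3, which makes dolichol, the lipid carrier of N-glycans, fell from 39 and 35 to 13 and 12 (log2 fold change -1.54, SE 0.21, adjusted p 0.011), and with the glucosyltransferase ALG8 it made up the 2 calls among 42 genes of N-glycosylation (4.76% lower, near the share over all genes, median 0.06). GALNT12, which starts mucin-type O-glycans, fell from 23 and 27 to 4 and 4 (log2 fold change -2.42, SE 0.20, adjusted p 0.00258). The heparan sulfate carriers GPC1, at 130 and 94 against 37 and 31, and SDC1, at 229 and 196 against 112 and 107, were the other calls among 16 genes of O-glycosylation and heparan sulfate core proteins (0 higher, 3 lower, median -0.43). Without control replicate 1, 2 of these 3 were called. THSD4, a matrix protein with thrombospondin repeats, was low, at 11 and 11 against 4 and 4 (log2 fold change -1.30, SE 0.20, adjusted p 0.0158). Both THSD4 and GALNT12 passed the filter only through the control samples. Without control replicate 2, 1 gene of N-glycosylation was called lower, and without control replicate 1 likewise 1.

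The list of NF-kB feedback and cytokine genes had a median of 0.94 (0.75 without control replicate 2) and held 12 calls higher (46.2% of 26) and 1 lower. NFKB2, the precursor of the p52 subunit, rose from 62 and 47 to 143 and 131 (log2 fold change 1.28, SE 0.22, adjusted p 0.0191). IRF1, a transcription factor shared by NF-kB and interferon responses, rose from 38 and 29 to 81 and 79 (log2 fold change 1.20, SE 0.24, adjusted p 0.029). The cytokine IL32 rose from 82 and 61 to 163 and 164 (log2 fold change 1.15, SE 0.22, adjusted p 0.0238). With NFKBIA, given above, these genes had shEZH2 samples that differed by less than 10% of their value. The other genes called higher were the subunit RELB, the inhibitors NFKBIE, TNFAIP3 and TNIP1, the cytokines IL6, CXCL2 and TNF and the adhesion molecule ICAM1, at log2 fold changes from 1.01 to 2.01. The highest of these, TNF at 6 and 3 against 22 and 20 and TNFAIP3 at 4 and 2 against 15 and 14, passed the filter only through the shEZH2 samples. IL18, an inflammasome cytokine, was the gene called lower (log2 fold change -0.93). In 22 of the 26 genes both shEZH2 samples lay above both controls, a gap that 32.6% of all genes had. With control replicate 2 left out, 6 members were called higher and 1 lower.

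AP-1 and immediate early genes rose in part, with 5 called higher and 1 lower of 21 (23.8% higher, median 0.54). Beside JUNB and IER3, MAFF, a small partner of basic leucine zipper factors, rose from 50 and 43 to 92 and 86 (log2 fold change 0.88, SE 0.19, adjusted p 0.0364). KLF10 was the other gene called higher with MYC, and FOS was called lower at a log2 fold change of -1.08. KLF10 and FOS had means over the 4 samples of 11.25 and 13.5, near the filter's value of 10. At that level passing the filter can rest on the group with the higher values. When control replicate 2 was left out, 3 genes were called higher and 0 lower. Among YAP and SRF targets 6 were called higher and 3 lower of 30 (median 0.41). CNN2 and MYL9, calponin and myosin light chain genes of the contractile cytoskeleton, rose from 13 and 11 to 30 and 29 (adjusted p 0.0253) and from 16 and 20 to 38 and 37 (adjusted p 0.0226). NT5E (CD73), which makes adenosine at the cell surface, fell from 847 and 1135 to 417 and 386 (log2 fold change -1.33, SE 0.17, adjusted p 0.00897). After control replicate 2 was removed, 2 genes of this list were called higher and 2 lower.

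Interferon-stimulated genes held 6 calls higher (of 40 tested) and 0 lower, with a median of 0.20. TRIM25, a ubiquitin ligase of the RIG-I pathway, rose from 33 and 33 to 75 and 68 (log2 fold change 1.05, SE 0.17, adjusted p 0.018). With ISG15, IRF1, IFIT2, IRF7 and OAS3 it made up the 6. IFIT2 and OAS3 had means under 10, so their passing the filter rested on the higher shEZH2 samples. In MHC class I antigen presentation 17 of 19 genes had a positive log2 fold change and the median was 0.51 (0.24 without control replicate 2), yet TAPBP, the tapasin gene, was the single call, at 41 and 42 against 75 and 69 (log2 fold change 0.73, SE 0.18, adjusted p 0.0496). HLA-B had 842 and 730 against 1382 and 1324 and did not pass the test (log2 fold change 0.74, SE 0.20, adjusted p 0.0598). With control replicate 1 left out, 6 genes of this list were called higher, and without control replicate 2 the count was 0. HLA genes are close copies of each other, so reads can be shared among them.

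Among targets of ATF4, the transcription factor of the integrated stress response, 4 were called higher and 1 lower of 32 (median 0.18). ATF4 itself rose from 254 and 248 to 412 and 433 (log2 fold change 0.70, SE 0.16, adjusted p 0.0383). TRIB3, a pseudokinase that restrains ATF4, rose from 52 and 40 to 107 and 116 (log2 fold change 1.22, SE 0.28, adjusted p 0.039), and SLC3A2, the shared chain of amino acid transporters, rose from 193 and 162 to 366 and 390 (log2 fold change 1.05, SE 0.22, adjusted p 0.0307). Without control replicate 2, 1 gene was called higher and 1 lower. ER chaperones and unfolded protein response genes held 1 call, higher, among 29 (median 0.03). HSPA5, the chaperone BiP, had 431 and 591 against 789 and 783 and missed the threshold (adjusted p 0.0655). Cytosolic heat shock proteins held 1 call higher of 36 (median -0.24), and HSP90AA1 had controls of 716 and 1772, a wider gap than that to the shEZH2 values of 605 and 621 (adjusted p 0.159). When control replicate 1 was left out, 3 heat shock genes were called higher and 4 lower and 4 ER genes higher, and without control replicate 2 the heat shock count was 0.

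Of 30 NRF2 targets and glutathione genes 1 was called higher and 4 lower (median -0.07, which changed sign without control replicate 1). GCLM, the regulatory subunit of the enzyme that limits glutathione synthesis, fell from 55 and 83 to 31 and 26 (log2 fold change -1.27, SE 0.25, adjusted p 0.0267). The glutathione reductase GSR fell from 83 and 84 to 44 and 44 (log2 fold change -0.95, SE 0.16, adjusted p 0.0181), and the quinone reductase NQO1 fell from 200 and 176 to 106 and 109 (adjusted p 0.0313). In iron and heme metabolism the heme enzyme UROS fell from 107 and 86 to 38 and 36 (log2 fold change -1.40, SE 0.20, adjusted p 0.0138) and was the single call among 24, with 2 calls without control replicate 1. Autophagy genes held 3 calls higher and 2 lower of 30 (median 0.07). GABARAPL1, of the family that coats autophagosomes, rose from 27 and 26 to 70 and 66 (log2 fold change 1.28, SE 0.16, adjusted p 0.00897), whereas WIPI1, which binds their precursor membrane, fell from 30 and 36 to 18 and 17 (adjusted p 0.0264). With control replicate 2 left out, the autophagy counts were 1 higher and 0 lower. Of 47 lysosomal genes 1 was called in each direction and of 36 proteasome subunits 0 by limma (6 at an unadjusted p under 0.05), with medians of -0.11 and -0.15. After control replicate 1 was removed, 4 lysosomal genes were called higher and 0 lower, and 2 proteasome subunits lower. When control replicate 2 was left out, both counts were 0.

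Proliferation genes showed few calls. In mitosis 1 of 56 genes was called higher and 1 lower (median -0.26, and -0.05 without control replicate 2, when 0 were called higher). SPC24, a kinetochore protein, fell from 109 and 92 to 44 and 45 (log2 fold change -1.20, SE 0.22, adjusted p 0.0238), and CDC25A, a phosphatase that activates cyclin-dependent kinases, rose from 25 and 26 to 46 and 48 (adjusted p 0.0318). Without control replicate 1, 5 mitosis genes were called lower. In DNA replication 1 of 47 was called higher and 4 lower (median -0.08), among them CDT1, the origin licensing factor, higher at 33 and 28 against 62 and 60, and PRIM1, a primase subunit, lower at 33 and 43 against 22 and 22. After control replicate 2 was removed, no replication gene was called (0 of 47). Homologous recombination and Fanconi anaemia genes (32) and p53 targets (20) had 0 calls by limma and medians of -0.18 and 0.11. The first became 0.04 without control replicate 2, and the second -0.03 with length and GC content corrected for. At an unadjusted p under 0.05 there were 8 and 7, and 1 recombination gene was called lower without control replicate 1. ATM, a kinase that signals DNA breaks, had 55 and 130 in the controls and 74 and 76 in shEZH2 cells (adjusted p 0.719), so that the controls spanned the shEZH2 values. CDKN2A, which encodes p16, had 248 and 253 against 319 and 338 (adjusted p 0.278), and CCND1, cyclin D1, had 131 and 140 against 194 and 187 (adjusted p 0.177). Of 16 cyclins and inhibitors of their kinases CCNE2, cyclin E2, was the single call, lower at 12 and 19 against 7 and 6, and it was lost without control replicate 2. CCNE2 passed the filter only through the control samples. Of 61 histone genes 2 were called higher and 2 lower, and 52 had a negative log2 fold change (median -0.23). HIST1H2BL had 344 and 252 against 133 and 154 (adjusted p 0.0491) and the linker histone H1FX had 108 and 101 against 203 and 190 (adjusted p 0.0496). With transcript length and GC content corrected for, the histone median was -0.37, with 2 calls higher and 39 lower. That fit called 1383 of all 9241 genes higher and 1669 lower. With control replicate 1 left out, the histone median was -0.04, with 2 calls higher and 0 lower, and without control replicate 2 it was -0.52, with 0 higher and 5 lower.

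Matrix and adhesion genes moved in both directions. Of 51 collagens, laminins and other matrix genes 4 were called higher (7.84%) and 6 lower (11.8%), with a median of -0.07 that changed sign without control replicate 1. Beside THBS1 and FN1, FBLN2, a fibulin of elastic fibres, fell from 166 and 156 to 82 and 72 (log2 fold change -1.10, SE 0.18, adjusted p 0.0179), and the transmembrane collagen COL13A1 fell from 31 and 33 to 15 and 12 (adjusted p 0.0176). When control replicate 1 was left out, 8 matrix genes were called higher and 4 lower, and without control replicate 2, 2 and 5. Among 28 integrins and focal adhesion proteins 3 were called higher and 4 lower (median 0.01). ITGA3, a laminin-binding integrin chain, fell from 561 and 458 to 276 and 241 (log2 fold change -1.02, SE 0.21, adjusted p 0.0306). In contrast the focal adhesion proteins ACTN1, at 309 and 266 against 608 and 542, ZYX, at 17 and 14 against 38 and 33, and TLN2, at 17 and 15 against 38 and 37, rose (adjusted p 0.0252, 0.0283 and 0.0181). Without control replicate 2, 1 gene of this list was called higher and 3 lower, and without control replicate 1, 3 higher and 6 lower.

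Receptor tyrosine kinases and their ligands held 5 calls lower (17.9% of 28) and 1 higher. EGFR, the epidermal growth factor receptor, fell from 83 and 107 to 38 and 32 (log2 fold change -1.45, SE 0.22, adjusted p 0.0155), with GAS6 and IGFBP3 given above and the growth factors NRG1 and FGF2 as the others. PDGFRB, the receptor of platelet-derived growth factor B, rose from 12 and 11 to 37 and 34 (log2 fold change 1.5, SE 0.25, adjusted p 0.018). Of 6 ephrins and their receptors 1 was called in each direction, EPHA2 higher and EPHA10 lower, at 17 and 14 against 3 and 2 (adjusted p 0.0148). EPHA10 passed the filter only through the control samples. In Wnt and Notch signalling 3 of 23 genes were called higher and 2 lower, and the ligand WNT5B fell from 77 and 66 to 28 and 25 (log2 fold change -1.44, SE 0.21, adjusted p 0.013) while HES4, a Notch effector, rose from 38 and 40 to 97 and 81 (adjusted p 0.0253). Among epithelial junction and keratin genes 1 was called in each direction of 22 and among mesenchymal genes and EMT factors 3 higher and 2 lower of 21, with medians of 0.12 and 0.14. The mesenchymal median changed sign without control replicate 1, with 5 genes called higher, and 1 was called higher without control replicate 2. With control replicate 2 left out, the epithelial counts were 0 higher and 1 lower, and without control replicate 1 they were 3 and 2. SMAD3, which carries TGF-beta signals, rose from 15 and 16 to 32 and 29 (adjusted p 0.0357).

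Tubulins, actins and intermediate filaments held 3 calls lower of 26, all of them beta tubulins. TUBB6 fell from 1035 and 1044 to 581 and 578 (log2 fold change -0.89, SE 0.16, adjusted p 0.0211), the neuronal isotype TUBB3 fell from 246 and 217 to 116 and 114 (log2 fold change -1.05, SE 0.23, adjusted p 0.0364) and TUBB2B, which has a close copy in TUBB2A, fell from 137 and 135 to 78 and 77 (adjusted p 0.0239). After control replicate 1 was removed, 1 gene of this list was called higher and 2 lower. Of 22 hypoxia-inducible genes 4 were called higher (18.2%) and 0 lower, which were STC2, CITED2, SLC2A3 and the peptide hormone gene ADM, at 66 and 60 against 111 and 110 (adjusted p 0.0415). When control replicate 2 was left out, 2 of this list were called higher. Of 27 BCL2 family and caspase genes 1 was called, CFLAR, the decoy that blocks caspase-8, higher at 66 and 71 against 117 and 115 (adjusted p 0.0346), with 2 higher and 1 lower without control replicate 1. Of 64 splicing factors the single call was the RNA helicase DDX17, higher at 213 and 224 against 449 and 439 (log2 fold change 0.97, SE 0.15, adjusted p 0.0152), with 3 calls higher without control replicate 1. ABC transporters (19) had 0 calls by limma and 9 at an unadjusted p under 0.05. Without control replicate 1, 1 of them was called higher and 2 lower, and without control replicate 2, 1 lower.

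Markers of other cell types were checked because they could move with a group. Of 15 markers of serous ovarian epithelium 10 were in the matrix and 6 had values of at least 10 in all 4 samples, among them PAX8 at 17 and 19 against 16 and 12. WT1, CLDN3 and CLDN4 were at 6 or below in every sample. The summed serous markers were 2601 to 3244 in control cells and 3577 to 3587 in shEZH2 cells. The higher sum came from KRT8, at 1021 and 816 against 1484 and 1494, and KRT18, at 1392 and 1080 against 1591 and 1592. KRT7, at 597 and 499 against 355 and 350, and MSLN, at 176 and 150 against 102 and 95, lay the other way, and the median log2 fold change of the 6 markers was -0.09. Fibroblast markers summed to 25 to 28 against 46 to 53, a rise carried by PDGFRB, and LUM was at 0 or 1. Leukocyte markers summed to 70 to 75 against 33 to 37, carried by CD68, a lysosomal glycoprotein not limited to leukocytes, at 70 and 65 against 32 and 28 (adjusted p 0.0235), while CD14 and CSF1R were at 2 or below. Endothelial markers summed to at most 4 and mesothelial markers to at most 13 in any of the 4 samples. The part of other cell types in the results was not tested.

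DZNep, an inhibitor of S-adenosylhomocysteine hydrolase that also lowers EZH2 protein, was the study's other way to deplete EZH2, and both contrasts share the control samples. With DZNep against control, 21.4% of all genes were called higher and 20.5% lower. Of the 300 genes called higher with the hairpin 291 were also called higher with DZNep. Of the 402 called lower 386 were also called lower, and 1 gene was called the opposite way. The shared control samples favour such overlap, so it is not independent support. In the direct test of shEZH2 against DZNep, in which 7.53% of all genes were called, 269 of the 702 genes differed. The change from control was larger with DZNep for most of these. It was larger with the hairpin for 8, among them DESI2, EMP1, FGF2, GSR, IGFBP3, NCL and TRIB3. Of the genes just named, DESI2, EMP1 and FGF2 were chosen after their values were seen. IGFBP3, at 100 and 101 in control cells and 32 and 27 in shEZH2 cells, had 79 and 91 with DZNep (log2 difference of shEZH2 from DZNep -1.49, adjusted p 0.0059). TRIB3, at 107 and 116 in shEZH2 cells, had 54 and 39 with DZNep and 52 and 40 in control cells (log2 difference 1.26, adjusted p 0.0365). GSR had 76 and 90 with DZNep against 44 and 44 (log2 difference -0.89, adjusted p 0.0215). For PFKP, in contrast, the values were 72 and 64 with DZNep and 441 and 433 in shEZH2 cells (log2 difference 2.67, adjusted p 0.0034). EZH2 mRNA had 26 and 26 with DZNep and 18 and 18 in shEZH2 cells, a difference that did not pass the test (log2 difference -0.50, SE 0.18, adjusted p 0.128).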

How the data were processed

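The 6 OVCAR8 RNA-Seq samples formed 3 groups of 2 by their labels. The authors removed ribosomal RNA, used fastp for trimming, STAR for alignment (GRCh38), RSEM for quantification and edgeR for tests. The deposited matrix is a score, scaled by the authors to a common total and rounded. In place of their count test, limma 3.58.1 in R 4.3.3 was therefore used (intensity trend, all 6 samples in 1 fit, two-sided, Benjamini-Hochberg) on log2(value + 1). Before this, trimmed-mean factors (0.923 to 1.11, own code, trim 0.3 of log ratios) were applied. The procedure was tested on simulated data. The simulated noise was independent between genes and samples, so this test did not cover the differences by GC content between the control samples. Genes were called at an adjusted p under 0.05.

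Named genes were EZH2, 10 genes of the study, the 15 lowest and 15 highest called genes whose mean reached 50 without overlap, and up to 4 called members per list whose mean reached 20, or the 2 most abundant where fewer than 2 were called; others are said to be chosen after their values were seen, or complete a list's calls. Members and lists were chosen with earlier results of these data known. Transcript length, GC content and coordinates came from GENCODE v44 for 98.7% of the genes, since symbols follow an older annotation. Replicate numbers did not pair these groups (correlation of deviations -0.032, against 0.790 for control with DZNep). Alternatives covered scaling, pseudocount, filters, the samples fitted, the replicate block, call rules, length and GC content, and left-out samples. Figures were drawn with matplotlib 3.10.9. A few genes are not reported here.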

Additional observations from a re-analysis of the deposited data

How the results depend on the processing

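The 300 genes called higher and 402 called lower in shEZH2 cells became 676 and 750 when only the 4 control and shEZH2 samples were fitted, 1383 and 1669 with transcript length and GC content corrected for, and 712 and 403 with the values as deposited. Counting the averaged shEZH2 samples as 1 gave 8 and 25. With a change beyond 2-fold also required the counts were 158 and 254, with unadjusted p and that change 182 and 289, and with both this rule and the averaging 182 and 288. Leaving out 1 sample in turn gave 7 to 598 genes higher and 25 to 509 lower. Median-ratio scaling, pseudocounts of 0.5 and 5, both filters, no intensity trend and robust estimation left each count within 1.5 times of 300 and 402. All 702 genes kept their direction under every setting that tested them. For EZH2 in shEZH2 against control the log2 fold change stayed at -1.11 with the averaging (adjusted p 0.209) and ran from -1.14 to -1.09 with 1 sample left out. Over 17 alternatives its adjusted p ran from 3.2e-05 to 0.216, and it passed without either control sample (0.0264 and 0.0416). The length and GC correction and the averaging with the published call rule were added after seeing the data. The cause of these shifts was not tested.

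The replicate numbers did not pair control with shEZH2 samples (correlation -0.032), whereas control and DZNep samples of the same number deviated together (0.790), and both groups enter the spread of the 6-sample fit. Values with the replicate block are given only here. With the block the counts were 1265 and 1323 over all 6 samples and 845 and 942 over the 4, and EZH2 had an adjusted p of 3.2e-05 and 0.000244.

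Depth is unknown because the values are scaled and rounded, which limits precision most for genes near 10. Only 2 samples per group were available, and the shEZH2 samples differ from each other less than those of the other groups, so counts that use them as separate samples rest on that agreement.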

Other observations

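Of the 702 called genes 520 belonged to none of the 55 lists. A list of branched-chain amino acid degradation, written after several of its members had been seen among the falling genes and so without a test, held 7 genes called lower and 0 higher of 21 tested, with a median log2 fold change of -0.31. HIBADH, a dehydrogenase of valine breakdown, had 75 and 81 in control cells and 33 and 32 in shEZH2 cells (log2 fold change -1.28), and PCCB, a propionyl-CoA carboxylase subunit, had 190 and 192 against 99 and 94 (log2 fold change -1.02). BCKDHB, MCCC1, ALDH6A1, ACAT1 and MMAB were the other genes called, whereas BCAT1, which starts the pathway, had 138 and 318 against 243 and 221. ALDH6A1, at 16 and 18 against 9 and 9, passed the filter only through the control samples. NNT, which makes mitochondrial NADPH from the proton gradient, had 120 and 174 against 45 and 43 (log2 fold change -1.74), and D2HGDH, which oxidises D-2-hydroxyglutarate, had 22 and 22 against 13 and 11 (log2 fold change -0.87); both were chosen after their values were seen.

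Translation elongation and related factors, also listed after the ribosomal proteins had been seen, had a negative log2 fold change in 15 of 15 genes (median -0.50), with 2 called lower. EEF1D had 2371 and 2037 against 985 and 1029 (log2 fold change -1.17), and EEF1A1 had 30817 and 38194 against 24960 and 25826 and was not called. Among regulators outside the lists, STAT3 had 53 and 48 against 102 and 95, RUNX1 had 10 and 12 against 27 and 22, and TXNIP had 26 and 29 against 60 and 48, all called higher and all chosen after their values were seen.

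By transcript GC content, 0.219% of the lowest of 4 equal classes of genes were called higher and 5.66% of the highest, with 3.42% and 4.91% called lower. Genes whose annotated 3′ UTR held TCCCATT, the match to the hairpin guide's seed shown above, numbered 1343. Their median log2 fold change was -0.042 with 4.54% called lower, against -0.011 and 4.13% for the 7574 genes without it. These shares mix 3′ UTR lengths, since 780 genes with the match lay in the longest of 4 length classes. From the shortest to the longest class, 10.3%, 2.42%, 3.53% and 5% of genes with the match were called lower. Without the match the shares were 5.15%, 4.27%, 3.86% and 2.76%. The shortest class held only 58 genes with the match, and the part of the seed in the falls was not tested. Of 105 lncRNAs 17.1% were called lower and 3.81% higher.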
